A study of Mus musculus with 30 samples.

Results

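The genes described here are the mouse semaphorins, their neuropilin and plexin receptors, the ephrins and their Eph receptors, and the Slits, which are families of axon guidance molecules. Members were taken by gene symbol: semaphorins of classes 3 to 7, all A to D plexins, both neuropilins, all EphA and EphB receptors, ephrins A1 to A5 and B1 to B3, and Slit1 to Slit3. By this rule 56 of 26264 listed genes were members, and 53 of them were among the 17136 genes with enough counts to be tested. The 3 others were Epha6, Epha8 and Epha10, whose highest levels in any library were 0.0466, 0.0811 and 0.0920 CPM (counts scaled to the depth of the library).

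RNA came from a shin muscle, the tibialis anterior, of male and female mice. In 8 groups the muscle had undergone volumetric muscle loss, an injury in which tissue is removed, 4, 7, 11 or 15 days earlier, and in 2 groups it was uninjured. The 10 groups of sex and time had 3 libraries apiece, so that every time point had 6 libraries and the whole series 30. The labels give neither strain nor age, and they do not state whether each library is a different animal, so the p-values below measure the spread between these samples.

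Semaphorins are secreted or membrane-bound ligands that signal through plexins, with neuropilins as the ligand-binding partner for most secreted class 3 members. Ephrins are tethered to the cell membrane and bind Eph receptor tyrosine kinases on neighbouring cells, and signals pass in both directions, while Slits are secreted ligands of Robo receptors. All these families were first known for steering axons, and they also act on blood vessels, immune cells and muscle, where they have been studied in the rebuilding of nerve contacts and in vessel growth.

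Total counts ranged over 13089999 to 57277336 per library and were lowest at day 15. Levels are given as CPM of a library total scaled by the trimmed mean of M values (TMM), and differences as log2 fold changes with their SE from 1 edgeR quasi-likelihood fit over all tested genes, called at a Benjamini-Hochberg adjusted p under 0.05. The mean TMM factor was 0.527 in uninjured libraries and 1.08 to 1.30 at the injured days, so this scaling matters. With library size alone the median log2 fold change of all tested genes at day 4 moved from 0.17 to 1.47, and every fall below is therefore a fall relative to the other genes. The library labelled female day 11 replicate 3 had 0.109 CPM of Xist against 467 and 566 in the other female libraries of that day, and 57.4 CPM of the Y-linked Ddx3y against 0 in both. It was kept under its label.

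The cell types in the tissue also moved, and in bulk RNA a change in the number of cells of a type cannot be told apart from a change in RNA per cell. The summed level of 10 mature fibre markers, such as Ckm and Acta1, had a median of 455200 CPM without injury and 49800 at day 4, and 9 of the 10 were called lower. The 10 macrophage markers summed to a median of 46.8 CPM in uninjured muscle and 2487 at day 4, and all 10 were called higher. Fibroblast marker sums had a median of 473 CPM in uninjured muscle and 11610 at day 4, with 8 of 10 called higher and 1 lower. Of the 10 satellite cell and myoblast markers, 9 were called higher and Des lower at day 4, and their sum, mostly Des, had a median of 7172 CPM without injury and 5604 at day 4. Of 8 neuron markers, Chat was at 0 in every library and Tubb3 alone reached a median above 1 CPM, at days 4 to 15. The part of these cell types in the results below was not tested, unless a value says otherwise.

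Most guidance genes stood above their uninjured level at every time after injury. At day 4, 35 of the 53 tested members were called higher and 8 lower, which is 66.0% and 15.1% of them, where 40.1% of all tested genes were called higher and 33% lower. Their median log2 fold change was 0.90, against 0.17 for all tested genes. At day 7, 34 members were called higher and 5 lower, with 41.6% and 29.9% of all genes. At day 11 the numbers were 35 and 5, with 42.7% and 29.7% of all genes, and at day 15 they were 37 and 4, with 39.7% and 29.3%. The 4 comparisons share the uninjured libraries, so they are not independent of each other.

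In 25 members the call was higher at all 4 days, and in 4 it was lower at all 4 days (Sema3g, Sema4d, Sema6c and Epha7). Another 16 were called higher at 1 to 3 days and never lower. Sema3c and Efna1 were called lower at some days only, and Plxna4 and Ephb4 changed from a lower call at day 4 to a higher call later. Efna3, Efnb3, Plxnb3 and Sema6d were called at no day. How many of all tested genes had each of these patterns over the days was not counted. At day 4 all 6 injured libraries lay above all 6 uninjured ones in 26 members and below them in 4, where this held for 31% and 25.9% of all tested genes. The members were 23 and 3 at day 7 (24.9% and 19.3% of all genes), 27 and 3 at day 11 (25.8% and 20.5%) and 28 and 3 at day 15 (24.1% and 21.1%). With library size alone 47, 48, 49 and 49 members were called higher at days 4, 7, 11 and 15, where 73.5%, 73.9%, 73.8% and 69.8% of all tested genes were. In the same fits 3, 1, 1 and 1 members were called lower, where 8.65%, 7.07%, 8.08% and 7.94% of all genes were.

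**Figure D1:**
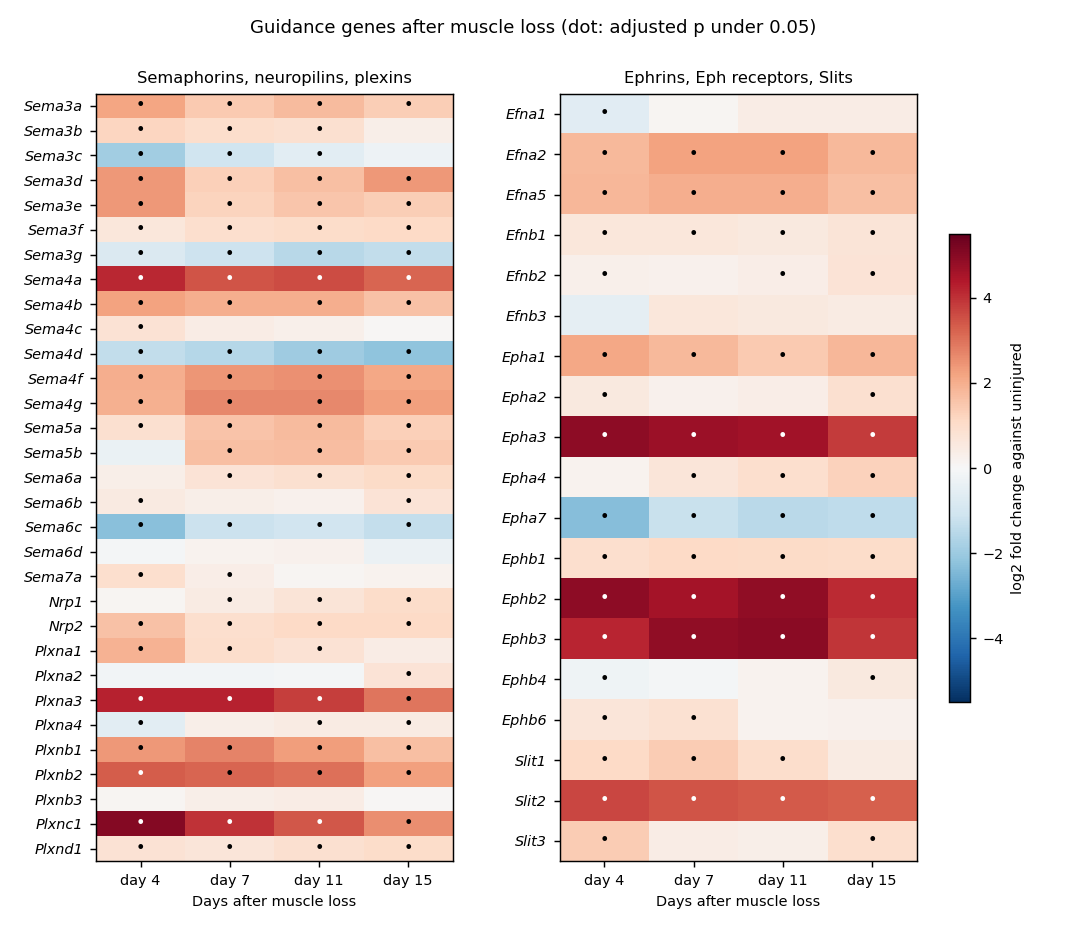
Log2 fold change against uninjured muscle (colour scale) of 50 tested members (rows, by family) at days 4, 7, 11 and 15 (columns), with a dot where the adjusted p was under 0.05. Efna3, Efna4 and Epha5 are left out because at least 1 sex had 6 counts or fewer in uninjured muscle. The strongest red stands in the rows of Ephb2, Ephb3, Epha3 and Plxnc1, and blue at all 4 days in Sema3g, Sema4d, Sema6c and Epha7, of which Sema3g at day 4 and Sema6c at day 11 turn positive with library size alone.

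Among the secreted class 3 semaphorins, 5 of 7 rose at day 4 (Sema3a, Sema3b, Sema3d, Sema3e and Sema3f) and 2 fell (Sema3c and Sema3g). Sema3d, a ligand known from vessel development, had the largest rise. Its 6 uninjured libraries had 0.0919 CPM at the lowest, 0.525 at the median and 1.42 at the highest, and the day 4 libraries had 1.73, 2.50 and 6.57. All day 4 libraries were above all uninjured ones, and the highest of them, female replicate 2, stood apart from the other 5. The log2 fold change was 2.38 ± 0.36 (SE) at day 4 (adjusted p = 2.2e-06), 1.31 at day 7, 1.65 at day 11 and 2.37 at day 15. Thinned to the smallest library total, the day 11 value was 0.82 (adjusted p = 0.113).

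Sema3a, the prototype axon repellent, which satellite cells also secrete, rose from a median of 1.26 CPM to 4.28 at day 4, by 2.16 ± 0.34 on the log2 scale, and stood at 2.80, 2.91 and 2.75 CPM at days 7, 11 and 15. Sema3e, which binds Plxnd1 without a neuropilin, rose by 2.38 ± 0.44 at day 4 from a low level of 0.252 CPM. Its day 7 call (1.21) was lost without female uninjured replicate 2 (0.94) or male day 7 replicate 2 (0.80), and with thinned libraries its calls at days 7 and 15 were lost (adjusted p = 0.117 and 0.0654). Sema3f, a ligand of Nrp2, rose by 0.64 at day 4 and by 1.10 at day 15. Sema3b, with 1.18 at day 4, was no longer called at day 15 (0.31).

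Sema3c, a class 3 ligand with a role in heart and vessel development, was the most abundant of the class per length of exon in uninjured muscle and fell. Uninjured libraries had 42.3, 57.1 and 70.0 CPM (lowest, median, highest), and day 4 libraries 6.88, 16.3 and 17.3. The groups did not overlap at day 4, nor at day 7, when the range was 16.6 to 41.3 CPM, but they did at days 11 and 15. Its log2 fold change was -1.92 ± 0.22 at day 4 (adjusted p = 1.86e-08), -1.11 at day 7 and -0.57 at day 11, and it was not called at day 15 (-0.29, adjusted p = 0.215). The values at days 7 and 11 were 0.0053 and 0.56 with library size alone, and the day 11 call was lost without female uninjured replicate 2 (-0.43) and with thinned libraries (-0.44). Sema3g, an endothelial semaphorin, fell at all 4 days. Its falls on the log2 scale were 0.80 at day 4, 1.15 at day 7, 1.52 at day 11 and 1.35 at day 15. With library size alone its day 4 value was 0.51. Its values at days 7, 11 and 15 were then -0.03, -0.37 and -0.32, none of them called.

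Of the transmembrane class 4 semaphorins, 5 of 6 were called higher at day 4 and Sema4d lower. Sema4a, known for its action on T cells and vessels, rose most. Uninjured libraries had 0.276, 0.929 and 2.52 CPM (lowest, median, highest), day 4 libraries 16.5, 17.4 and 20.9, and day 15 libraries 3.81, 9.70 and 17.6. Every injured library at each of the 4 days was above every uninjured one. The log2 fold changes were 4.15 ± 0.35 (adjusted p = 1.53e-10), 3.46, 3.60 and 3.21 at days 4, 7, 11 and 15. Sema4b rose by 2.20 ± 0.17 at day 4 and by 1.60 at day 15, and Sema4f and Sema4g rose by 1.99 and 1.97 at day 4 and by 2.13 and 2.24 at day 15. Sema4c, a ligand of Plxnb2, was called at day 4 alone (0.79 ± 0.26).

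Sema4d, also called CD100, is a ligand of B plexins and of Cd72 on immune cells. It went the other way, and its median fell further from day to day. No step from 1 injured day to the next was called. The median was 213.8 CPM without injury, then 89.1 at day 4, 66.7 at day 7, 50.1 at day 11 and 44.6 at day 15. The lowest uninjured library, at 189.4 CPM, lay above the highest injured library of any day, at 118.2. The log2 fold changes were -1.34 ± 0.23 (adjusted p = 1.07e-05), -1.56, -1.95 and -2.21 ± 0.24 (adjusted p = 1.92e-08) at the 4 days, and day 15 was below day 4 by the test between those days (-0.87 ± 0.23). The mature fibre marker sum had medians of 49800 CPM at day 4 and 119200 at day 15, both below the uninjured one, and its part in the fall of Sema4d was not tested. The day 4 value of Sema4d was -0.04 with library size alone.

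In classes 5 to 7, Sema5a, Sema6b and Sema7a were called higher at day 4 and Sema6c lower. Sema5a, a transmembrane semaphorin with thrombospondin repeats, had uninjured libraries at 1.93, 3.15 and 4.43 CPM (lowest, median, highest). They were 4.27, 5.26 and 7.25 at day 4 and 8.978, 9.959 and 11.95 at day 11. Day 4 libraries overlapped the uninjured ones only at the edge, and day 11 libraries were all higher. Its log2 fold change was 0.89 ± 0.17 at day 4 and 1.74 ± 0.18 at day 11 (adjusted p = 6e-09). The related Sema5b was not called at day 4 (-0.37, adjusted p = 0.31) and rose by 1.68, 1.71 and 1.43 at days 7, 11 and 15.

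Sema6c, a transmembrane semaphorin of the class that binds A plexins, was the most abundant member per length of exon in uninjured muscle, with a median of 68.1 CPM per kb, followed by Sema4d with 27.8. The uninjured libraries had 369.7, 404.2 and 473.1 CPM (lowest, median, highest), and the day 4 libraries 57.9, 84.9 and 103.0. Medians at days 7, 11 and 15 were 172.4, 174.2 and 162.2 CPM, and no injured library reached the lowest uninjured one. The log2 fold change was -2.31 ± 0.24 at day 4 (adjusted p = 4.64e-09), -1.16 at day 7, -1.04 at day 11 and -1.30 at day 15. Library size alone gave -0.03, 0.11 and -0.26 at days 7, 11 and 15, none of them called. The mature fibre markers had their lowest median at day 4 as well, and their part in the fall was not tested.

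Sema7a, which is anchored to the membrane by a lipid and binds Plxnc1 and the integrin Itgb1, rose from a median of 47.5 CPM to 92.6 at day 4 (0.94 ± 0.15). It was called at day 7 (0.38, lost without any of 5 libraries, at 0.21 to 0.36) and not at day 11 (0.09). Sema6a, a ligand of Plxna2 and Plxna4, was not called at day 4 and rose by 0.76, 0.87 and 1.04 at days 7, 11 and 15. Sema6b was called at days 4 and 15 (0.48 and 0.74), and the day 4 call was lost when any of 5 libraries was left out (0.36 to 0.43) or the libraries were thinned (0.44). Sema6d was called at no day, with values between -0.31 and 0.22.

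**Figure D2:**
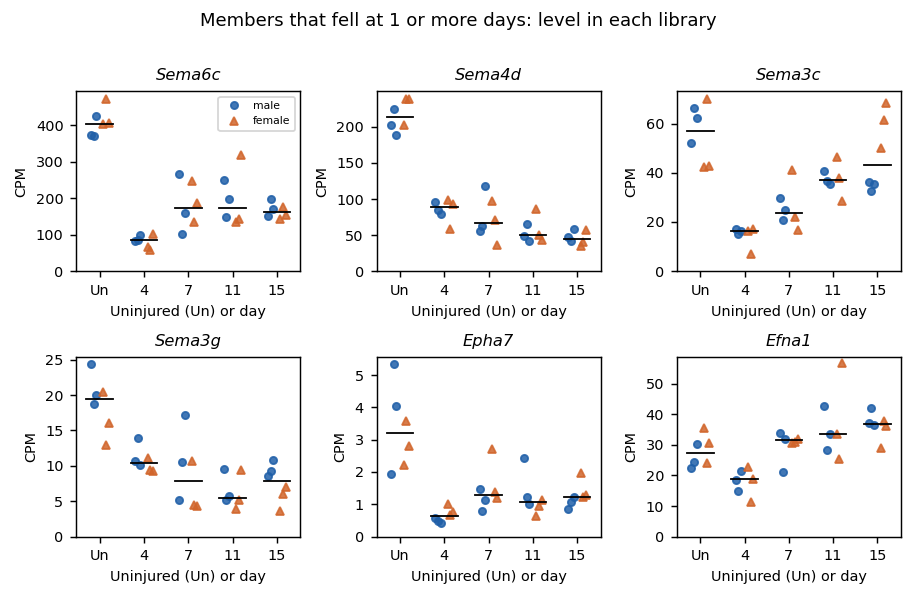
Level in CPM (linear axes from 0) of 6 members that fell at 1 or more days, in uninjured muscle and at days 4, 7, 11 and 15. Circles are male and triangles female libraries, 3 each, and the bar is the median of 6. Sema4d goes from a median of 213.8 CPM to 44.6 at day 15, whereas Sema6c and Sema3c are lowest at day 4. With library size alone Sema3g and Efna1 at day 4, Sema3c at days 7 and 11 and Sema6c at day 11 turn positive.

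The neuropilins, co-receptors for class 3 semaphorins and for vascular endothelial growth factors, followed different courses. Nrp1, found on arterial endothelium among other cells, had 88.5, 115.2 and 140.4 CPM in uninjured libraries (lowest, median, highest), 107.3, 119.3 and 154.4 at day 4, and 168.7, 217.1 and 383.2 at day 15. The day 4 libraries overlapped the uninjured ones widely, and the day 15 libraries were all above them. Nrp1 was not called at day 4 (0.10 ± 0.19) and rose by 0.44 at day 7, 0.71 at day 11 and 1.02 ± 0.19 at day 15 (adjusted p = 4.58e-05). The day 7 call was lost when any of 7 libraries was left out (0.21 to 0.45).

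Nrp2, found on veins, lymphatic vessels and immune cells, was highest at day 4. Its uninjured libraries had 9.94, 13.9 and 22.9 CPM, its day 4 libraries 30.6, 42.9 and 77.7, and its day 15 libraries 22.6, 31.9 and 35.4. All libraries of days 4, 7 and 11 lay above all uninjured ones, and at day 15 the lowest was just below the highest uninjured library. The log2 fold change was 1.63 ± 0.18 at day 4 (adjusted p = 1.51e-08) and 0.94, 1.08 and 1.08 at days 7, 11 and 15. Between days 4 and 15 Nrp1 rose by 0.92 ± 0.19 and Nrp2 fell by 0.55 on the log2 scale, both called, though Nrp2 not without female day 4 replicate 2 (-0.36). Per length of exon Nrp1 stayed the higher of the pair at every day, with medians of 12.2 against 3.62 CPM per kb at day 4 and 22.2 against 2.69 at day 15.

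Of the 9 plexins, the signalling receptors for semaphorins, 6 rose at day 4 and Plxna4 fell. Plxnc1, the receptor for Sema7a, rose most. Its uninjured libraries had 0.264, 0.631 and 1.07 CPM (lowest, median, highest) and its day 4 libraries 18.8, 20.5 and 25.7. Medians then were 8.58, 7.31 and 4.10 CPM at days 7, 11 and 15, and every injured library remained above every uninjured one. The log2 fold change was 5.05 ± 0.48 at day 4 (adjusted p = 1.17e-09) and 2.56 ± 0.46 at day 15, a fall of 2.49 between those days (adjusted p = 2.29e-05). The macrophage marker sum had medians of 2487, 934.8, 921.2 and 523.7 CPM at the same 4 days, and its part in the course of Plxnc1 was not tested.

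Plxnb2, a receptor for class 4 semaphorins, had uninjured libraries at 12.4, 17.3 and 22.1 CPM and day 4 libraries at 153.2, 169.4 and 207.5, a rise of 3.33 ± 0.27 on the log2 scale. It was still 2.28 above at day 15, and the injured and uninjured libraries never overlapped. Plxnb1, the receptor for Sema4d, rose by 2.37 at day 4, 2.73 at day 7 and 1.65 at day 15, so that this receptor was higher at the days when its ligand was lower. Plxnb3 was called at no day. Plxna3, which works with Nrp2 in Sema3f signalling, rose by 4.22 ± 0.37 at day 4 and by 2.95 at day 15. Plxnd1, the endothelial receptor for Sema3e, rose at all 4 days by 0.68 to 1.02.

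The other A plexins differed in time. Plxna1 rose by 1.90 ± 0.20 at day 4, from a median of 21.5 CPM to 85.8, and was not called at day 15 (0.39). Plxna2 lay between -0.16 and -0.10 at days 4, 7 and 11, not called at any of them, and rose by 0.76 ± 0.16 at day 15 (adjusted p = 0.000225), when its 6 libraries had 29.3 to 38.2 CPM against 16.7 to 27.7 in uninjured muscle. Plxna4 had 3.83, 5.74 and 7.06 CPM in uninjured libraries (lowest, median, highest), 2.48, 3.86 and 4.60 at day 4 and 4.92, 7.79 and 9.92 at day 15, with overlap at both days. It fell by 0.58 ± 0.17 on the log2 scale at day 4 and rose by 0.47 at day 11 and 0.44 at day 15. Its day 4 value was 0.71 with library size alone, its day 11 call was lost without female day 11 replicate 1 (0.33), and its day 15 call without any of 4 libraries (0.33 to 0.42). Thinning to the smallest library total ended both calls (0.36, adjusted p = 0.13, and 0.27, adjusted p = 0.259).

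**Figure D3:**
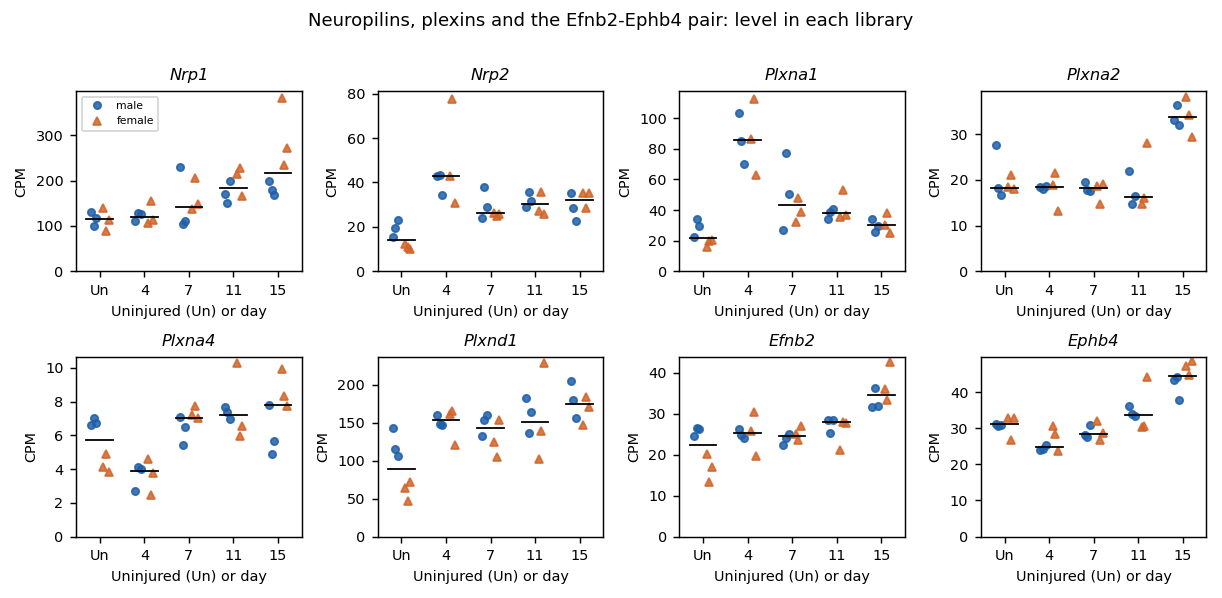
Level in CPM (linear axes from 0) of both neuropilins, 4 plexins, Efnb2 and Ephb4 in uninjured muscle and at days 4, 7, 11 and 15. Circles are male and triangles female libraries, 3 each, and the bar is the median of 6. Nrp2 and Plxna1 are highest at day 4, while Nrp1, Plxna2, Efnb2 and Ephb4 are highest at day 15. At day 4, Plxna4 and Ephb4 stand lower than in uninjured muscle, a direction that reverses with library size alone (0.71 and 1.06).

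Of the ephrin-A ligands, which are held to the membrane by a lipid anchor, 3 of 5 were called higher at day 4 and Efna1 lower. Efna4 had 16 counts in the male and 4 in the female uninjured libraries, so its levels stand here without a fold. Its uninjured libraries had 0, 0.0899 and 0.443 CPM (lowest, median, highest), its day 4 libraries 1.95, 2.83 and 3.41 and its day 11 libraries 1.71, 5.62 and 8.41. Every injured library was above every uninjured one, and Efna4 was called higher at all 4 days. Efna5, a ligand with wide binding to EphA receptors, rose by 1.84 ± 0.32 at day 4, and Efna2 by 1.78 ± 0.37, and both were called at all 4 days. Efna3 was called at no day, at medians of 0.0802 to 0.230 CPM.

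Efna1, known from vessels and the most abundant ephrin-A per length of exon, had 22.4, 27.3 and 35.7 CPM in uninjured libraries and 11.2, 18.8 and 22.9 at day 4. The groups overlapped at their edges. It fell by 0.63 ± 0.19 on the log2 scale at day 4 (adjusted p = 0.00422), was not called afterwards, and rose by 1.02 ± 0.19 between days 4 and 15. Its day 4 value was 0.67 with library size alone.

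The ephrin-B ligands, which span the membrane, moved little. Efnb2, a marker of arterial endothelium, had 13.3, 22.4 and 26.5 CPM in uninjured libraries, 19.8, 25.3 and 30.4 at day 4 and 31.5, 34.6 and 42.5 at day 15. Only the day 15 libraries were all above the uninjured ones. Its log2 fold change was 0.28 ± 0.12 at day 4 (adjusted p = 0.0409, lost when any of 10 libraries was left out, at 0.19 to 0.29) and 0.76 ± 0.12 at day 15 (adjusted p = 6.01e-06). Efnb1 rose by 0.55 to 0.70 at the 4 days. Efnb3 was not called against uninjured muscle, although it rose by 0.95 ± 0.28 between days 4 and 15.

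Among the EphA receptors, Epha1, Epha2 and Epha3 rose at day 4 and Epha7 fell. Epha3, a receptor for Efna5, had uninjured libraries at 0.0833, 0.426 and 0.687 CPM (lowest, median, highest), and day 4 libraries at 6.11, 8.08 and 26.3. The medians at days 7, 11 and 15 were 7.22, 11.1 and 6.32 CPM, and each injured library exceeded all uninjured ones. Its log2 fold change was 4.93 ± 0.55 at day 4 (adjusted p = 1.78e-08) and 3.82 ± 0.54 at day 15. These values rest on 54 counts in uninjured muscle, and without female uninjured replicate 1 the day 4 value was 5.64.

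Epha7, another receptor for A ephrins, had uninjured libraries at 1.949, 3.198 and 5.333 CPM and day 4 libraries at 0.425, 0.624 and 1.02. No day 4 library reached an uninjured one, and at the later days 1 or more libraries did. The log2 fold change was -2.36 ± 0.30 at day 4 (adjusted p = 1.13e-07) and -1.24, -1.46 and -1.41 at days 7, 11 and 15, where library size alone gave -0.12, -0.33 and -0.36. Epha4, which binds ephrins of both classes and was studied in motor axons, was not called at day 4 (0.17) and rose by 0.66, 0.93 and 1.29 at days 7, 11 and 15. Epha1 rose at all days (1.45 to 2.13), and Epha2 at days 4 and 15 (0.53 and 0.90), the former lost without female uninjured replicate 2 (0.41) or female day 4 replicate 2 (0.38). Epha5 was near 0, with 2 counts in all uninjured libraries and no library above 0.280 CPM. It was called higher at days 11 and 15, and these calls were lost without any 1 of 7 and 6 libraries.

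Of the 5 EphB receptors, Ephb1, Ephb2, Ephb3 and Ephb6 rose at day 4. Ephb3, a receptor for B ephrins, had 0.667, 1.53 and 2.57 CPM in uninjured libraries (lowest, median, highest). It had 23.4, 27.1 and 39.0 at day 4, 24.3, 52.3 and 71.8 at day 11, and 14.8, 25.3 and 30.7 at day 15. The injured libraries were all above the uninjured ones. Its log2 fold change was 4.21 ± 0.37 at day 4, 4.89 at day 7, 4.98 ± 0.38 at day 11 (adjusted p = 1.11e-10) and 3.93 at day 15. Ephb2 was also called higher at all 4 days, but its highest median was at day 4 and that of Ephb3 at day 11. Its medians were 0.520 CPM in uninjured muscle and 15.0, 11.8, 14.1 and 7.46 at the 4 days. The log2 fold changes of Ephb2 were 4.93 ± 0.42, 4.58, 4.87 and 4.08. Ephb1 rose by 0.90 to 1.10, and Ephb6, which lacks kinase activity, at days 4 and 7 (0.67 and 0.83), the former lost without male day 4 replicate 3 (0.56) or female day 4 replicate 2 (0.54), or with thinned libraries (0.55).

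Ephb4, the venous receptor of Efnb2, changed over a narrow range. Uninjured libraries had 26.9, 31.1 and 33.0 CPM, day 4 libraries 23.8, 24.8 and 30.7, and day 15 libraries 37.9, 44.6 and 48.7. Day 4 overlapped the uninjured range, and day 15 lay wholly above it. Ephb4 fell by 0.25 ± 0.11 on the log2 scale at day 4 (adjusted p = 0.0405) and rose by 0.52 ± 0.11 at day 15 (adjusted p = 0.000155). The day 4 call was lost under 4 other settings and without any of 6 libraries (-0.25 to -0.20), and with library size alone the value was 1.06. The 10 endothelial markers had a median sum of 1046 CPM without injury, then 569.7 at day 4, 751.3 at day 7, 952.8 at day 11 and 1378 at day 15, with 7 called lower at day 4 and 8 higher at day 15. Their part in the courses of Ephb4, Efnb2, Efna1 and Nrp1 was not tested.

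All 3 Slits rose at day 4. Slit2 had uninjured libraries at 0.0833, 0.212 and 0.305 CPM (lowest, median, highest), day 4 libraries at 1.08, 1.69 and 8.93, and day 15 libraries at 1.22, 1.99 and 2.95. Its log2 fold change was 3.66 ± 0.44 at day 4 (adjusted p = 6.41e-08) and 3.29 to 3.47 later, with no overlap at any day. It rests on 30 counts in uninjured muscle and was 5.84 at day 4 when all libraries were thinned to the smallest total.

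Slit3 had 3.13, 4.07 and 6.38 CPM in uninjured libraries and 7.90, 10.1 and 18.9 at day 4, when all were above the uninjured range. It rose by 1.38 ± 0.23 at day 4 and 0.93 at day 15 but was not called at days 7 and 11 (0.42 and 0.34). Slit1 had 1.08, 2.17 and 2.37 CPM in uninjured libraries, 3.03, 3.92 and 5.77 at day 4 and 1.98, 2.88 and 3.02 at day 15. It rose by 1.10, 1.41 and 0.98 at days 4, 7 and 11 and overlapped the uninjured range at day 15 (0.46, not called). Of the Robo genes, Robo1 rose by 3.33 ± 0.40 at day 4 and 2.45 at day 15. The endothelial Robo4 fell by 0.84 at day 4 and rose by 1.38 ± 0.22 at day 15. Robo2 had medians of 0.641 CPM in uninjured muscle, 0.432 at day 4 and 1.16 at day 15. No library had more than 0.555 CPM of Robo3.

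**Figure D4:**
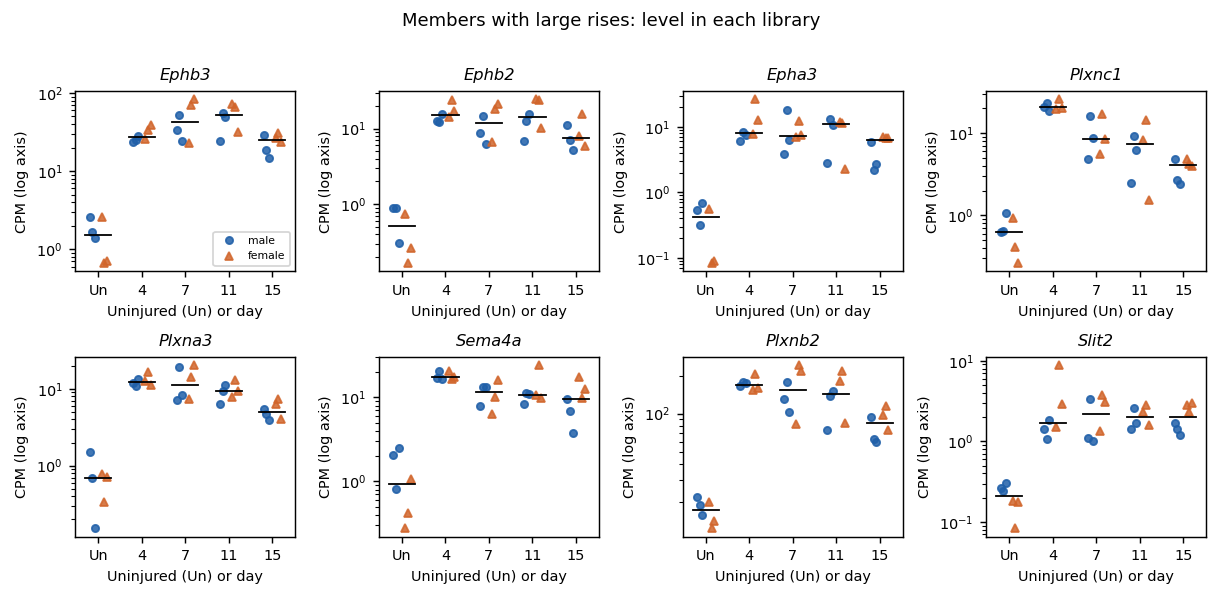
Level in CPM (log axes) of 8 members with large rises, in uninjured muscle and at days 4, 7, 11 and 15. Circles are male and triangles female libraries, 3 each, and the bar is the median of 6. In all 8 panels every injured library lies above every uninjured one. Plxnc1 declines from a median of 20.5 CPM at day 4 to 4.10 at day 15, whereas Ephb3 has its highest median, 52.3, at day 11.

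Between the injured days the shares of members called were near those of all genes. From day 4 to day 7, 10 members rose and 7 fell (18.9% and 13.2% of them), where 18.5% and 16.7% of all tested genes did. Between days 7 and 11 none of the 53 was called by edgeR (3 had an unadjusted p under 0.05), where 0.0584% of all genes were called. From day 11 to day 15 Plxna2 rose by 0.86 ± 0.16 (adjusted p = 0.00297) and Sema3b fell by 0.58 (adjusted p = 0.0358), where 2% of all genes rose and 2.25% fell, and the call of Sema3b was lost without any 1 of 9 of the 12 libraries. Without female day 11 replicate 3, whose sex genes go against its label, 5 members rose and 5 fell in that step. The shares of all genes called in that fit were not counted.

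Between days 4 and 15, which share no libraries, 15 members rose and 17 fell (28.3% and 32.1% of them), where 25.1% and 27% of all tested genes did. The risers were Sema3c, Sema3f, Sema5a, Sema5b, Sema6a, Sema6c, Nrp1, Plxna2, Plxna4, Efna1, Efnb2, Efnb3, Epha4, Epha7 and Ephb4. The calls of Sema3f (0.46) and Sema5a (0.41) were each lost without any 1 of 10 of the 12 libraries, at 0.36 to 0.49 and 0.27 to 0.43. RLE scaling (adjusted p = 0.0542 for Sema3f and 0.0565 for Sema5a) and a fit with no low-count filter also ended both, DESeq2 and the replicate block that of Sema3f, and thinning those of Sema5a and Efnb3 (adjusted p = 0.127 and 0.0524). Scaling by library size alone ended the calls of Sema3f (0.20), Sema5a (0.15), Efnb2 (0.20) and Efnb3 (0.70). In all, 9 of the 32 calls were lost without at least 1 library. Besides Sema3f and Sema5a, the calls lost were falls. That of Sema3e was lost without any 1 of 8 libraries, Epha3 of 7, and Ephb2 and Sema3a of 6. Those of Slit1 and Sema4c were lost without any 1 of 3 and 2 libraries, and that of Nrp2 without 1. Thinning also ended the falls of Sema3e, Sema3a, Ephb2 and Slit1 (adjusted p = 0.0818, 0.125, 0.0939 and 0.0868). The largest of the rises was 1.80 ± 0.32 in Sema5b, followed by 1.63 ± 0.21 in Sema3c. Among those that fell were all called class 4 semaphorins (Sema4a, Sema4b, Sema4c and Sema4d) and 5 plexins (Plxna1, Plxna3, Plxnb1, Plxnb2 and Plxnc1), with -2.49 ± 0.41 in Plxnc1 and -1.51 ± 0.20 in Plxna1. Leaving out female day 4 replicate 2 reduced the number that fell from 17 to 11, and from 7 to 4 between days 4 and 7. That library had 9569 CPM of mature fibre markers, the lowest of all, and the highest level of the 6 day 4 libraries in 28 of the 53 members. The shares of all genes called without it were not counted.

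**Figure D5:**
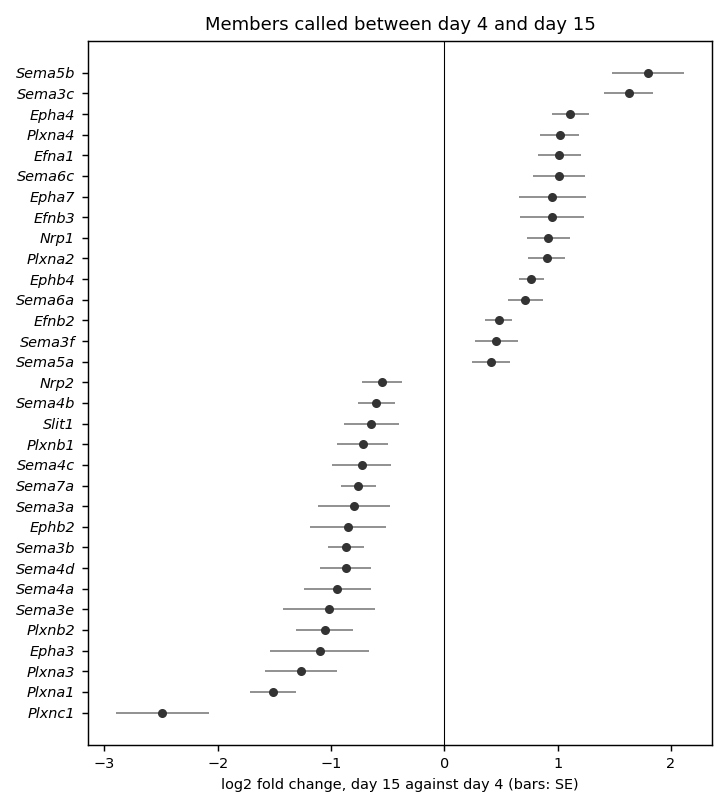
Log2 fold change from day 4 to day 15 (points) with its SE (bars) for the 32 members called in that comparison, ordered by value. The 15 points to the right of 0 are led by Sema5b and Sema3c, and the 17 to the left end with Plxna1 and Plxnc1.

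Few differences between the sexes passed the test. In uninjured muscle 43 of the 53 members had a lower estimate in females, with a median log2 difference of -0.49 against -0.03 for all tested genes. By edgeR Plxnd1 alone was called, where 0.642% of all genes were, and 13 members had an unadjusted p under 0.05. Plxnd1 had 143.3, 115.0 and 106.4 CPM in the male libraries and 63.4, 46.5 and 71.6 in the female ones, a difference of -1.01 ± 0.24 (adjusted p = 0.0491). The sexes did not overlap, but the call was lost without any 1 of the 6 libraries. It was also lost with a replicate block (adjusted p = 0.0581) and under 4 other settings. DESeq2 called 3 members, where it called 0.617% of all genes higher in females and 0.647% lower.

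Fibroblast marker sums in the same libraries were 890.7, 868.3 and 533.9 CPM in males and 410.0, 411.4 and 357.5 in females, and their part in the sex difference was not tested. The test of a sex difference in the response to injury called no member, at any day or over the 4 days jointly, by edgeR, where 0.0467%, 0.123%, 0.0584% and 0.21% of all genes were called at days 4, 7, 11 and 15 and 0.035% jointly. Unadjusted, 12, 10, 9 and 15 members had a p under 0.05 at the 4 days and 9 jointly. The share of all genes with such a p was not counted, here or in uninjured muscle. The female day 11 group holds replicate 3, whose sex genes go against its label. Nearest to a call was Sema4a at day 15, whose rise was larger in females by 2.59 ± 0.66 (adjusted p = 0.0949).

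Genes outside the 4 families that act in the same pathways moved in both directions. Of 21 related receptors and co-receptors 18 were tested. At day 4, 12 were called higher and 4 lower (66.7% and 22.2%), where 40.1% of all tested genes were called higher and 33% lower. Cd72, the immune receptor for Sema4d, had 27 counts in uninjured muscle, at 0 to 0.441 CPM, and 18.2 to 44.0 CPM at day 4. Unc5a, a netrin receptor, fell by 1.93 on the log2 scale. Of 15 related ligands 4 were called higher and 4 lower at day 4, with Ntn5 at 1.08, Rgma at 0.40, Ntng2 at -1.48 and Rgmb at -1.20.

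Of 40 signal transducers 25 were called higher and 7 lower at day 4 (62.5% and 17.5%), where 40.1% and 33% of all tested genes were. Rhod, a small GTPase, rose by 3.90 ± 0.36, and Srgap3, which links Robo receptors to Rac, by 3.85 ± 0.24. Farp2, which acts downstream of A plexins, fell by 1.44, and Mical2, an actin-oxidising enzyme, by 1.37.

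Some members lie side by side on a chromosome without moving alike. In the RefSeq annotation of GRCm38.p6, Efna1, Efna3 and Efna4 follow each other on chromosome 3 with no protein-coding gene between them, and at day 4 Efna1 was called lower, Efna4 higher and Efna3 neither. Sema3d and Sema3a are adjacent on chromosome 5, with Sema3e 3 protein-coding genes further on, and all 3 rose, whereas Sema3c, on the same chromosome, fell. Sema3b and Sema3f, on chromosome 9 with 3 genes between them, both rose.

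Start-site sequences, from RefSeq on GRCm38.p6, are shown for Ephb3 and Epha3 as the Eph receptors described in full for their rise. They are also shown for Efna4 as the riser in its cluster, and for Sema3a and Sema3c as a rising and a falling class 3 gene of 1 chromosome. Each run is the 250 bases before the annotated start, 5′ to 3′ on the gene's strand. Capitals mark matches on either strand to the E-box CAGCTG, the AP-1 site TGACTCA, the GC box GGGCGG or the TATA box TATAAA, none of which overlap. Ephb3 lies at chr16:21204545-21204794 on the plus strand, Epha3 at chr16:63864176-63864425 on the minus strand, Efna4 at chr3:89338029-89338278 on the minus strand, Sema3a at chr5:13396534-13396783 on the plus strand and Sema3c at chr5:17574566-17574815 on the plus strand.
Ephb3 promoter: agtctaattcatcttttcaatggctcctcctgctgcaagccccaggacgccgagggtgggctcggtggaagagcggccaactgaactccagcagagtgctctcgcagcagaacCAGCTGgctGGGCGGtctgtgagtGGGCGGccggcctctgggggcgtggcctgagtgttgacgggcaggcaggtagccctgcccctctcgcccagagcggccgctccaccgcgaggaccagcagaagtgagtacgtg
Epha3 promoter: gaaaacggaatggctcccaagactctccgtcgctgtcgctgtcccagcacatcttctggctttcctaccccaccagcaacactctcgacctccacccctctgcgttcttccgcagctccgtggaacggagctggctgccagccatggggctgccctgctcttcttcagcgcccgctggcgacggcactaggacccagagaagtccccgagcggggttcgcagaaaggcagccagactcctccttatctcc
Efna4 promoter: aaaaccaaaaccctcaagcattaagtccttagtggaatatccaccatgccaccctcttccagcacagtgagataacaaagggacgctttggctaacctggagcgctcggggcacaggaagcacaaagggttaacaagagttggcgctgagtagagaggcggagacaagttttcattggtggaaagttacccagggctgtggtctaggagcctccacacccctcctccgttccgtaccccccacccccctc
Sema3a promoter: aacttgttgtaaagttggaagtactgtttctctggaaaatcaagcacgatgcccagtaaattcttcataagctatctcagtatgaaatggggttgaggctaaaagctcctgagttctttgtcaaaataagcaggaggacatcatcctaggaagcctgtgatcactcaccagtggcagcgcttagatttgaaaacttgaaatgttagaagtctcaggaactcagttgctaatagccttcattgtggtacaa
Sema3c promoter: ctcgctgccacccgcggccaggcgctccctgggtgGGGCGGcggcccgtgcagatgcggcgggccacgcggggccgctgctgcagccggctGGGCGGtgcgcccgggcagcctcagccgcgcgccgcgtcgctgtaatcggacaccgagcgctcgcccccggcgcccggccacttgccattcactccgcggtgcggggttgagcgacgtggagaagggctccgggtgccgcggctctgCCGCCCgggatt

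The Ephb3 window held 1 E-box and 2 GC boxes, that of Sema3c 3 GC boxes, and those of Epha3, Efna4 and Sema3a no match. Sema3c had 39 CG dinucleotides and 78.4% G and C in its window, Sema3a 2 and 40.8%. Of the 49 members with an entry, 38 (77.6%) held a GC box, where 54.0% of the windows of all tested genes and 32.9% of all 27025 windows did. The E-box was in 7 members (14.3%, against 12.4% of tested genes), AP-1 in 1 (2.04%, against 3.51%) and the TATA box in 2 (4.08%, against 7.49%). These are matches of letters, and no binding was measured.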

How the data were processed

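RNA-seq of 30 libraries of mouse tibialis anterior was analysed from the counts per gene symbol that the authors deposited, 1 table per library. Per the submitters' processing notes reads were aligned with STAR to mm39, and edgeR is named there too, without versions. The counting program, annotation and use of strand could not be taken from the labels or headers, so overlapping or antisense genes cannot be told apart. Of the counts from 1 to 20, 65.5 to 77.5% per library were even, a pattern that counting the 2 reads of a pair separately would give.

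Genes passing filterByExpr over the 10 groups (17136 of 26264) were fitted with edgeR 4.0.16 in R 4.3.3 (TMM scaling, glmQLFit, 1 mean per group, glmQLFTest), and p-values were adjusted over all of them. SE values come from the same tests. The fit was tested on simulated data. Libraries differed by far more than counting noise (lowest chi-square per degree of freedom 15.6). Exon lengths came from GENCODE M21 and matched all 56 members.

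The members and lists were chosen with earlier results of these data known. Members given in full were the called one with the largest rise and fall in each family at a mean CPM of at least 1, both neuropilins, all Slits, any with a called sex difference or calls in both directions. From each related list the 2 largest called rises and falls at day 4 are named, also at a mean CPM of at least 1. Genes of these lists below that level could have larger changes. Others named were chosen after their values were seen. Alternatives were other scalings (RLE, library size alone), filters, DESeq2 1.42.0, fewer groups, a replicate block, thinning, halved counts and leaving out each library.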

Additional observations from a re-analysis of the deposited data

Results flagged for a closer look

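In 105 groups of 6 libraries (21 members at 5 time points), Dixon's test set the highest or lowest library apart in 13, where chance gives about 1 in 20, or 5.2 groups. Of these, 6 were female day 4 replicate 2: its level was the highest in Sema3d (6.57 CPM, next 3.01), Nrp2 (77.7, next 43.5), Epha3 (26.3, next 12.6), Slit2 (8.93, next 2.88) and Slit3 (18.9, next 11.1), and the lowest in Sema3c (6.88, next 15.1). The other 7 came from 6 other libraries. Sema4a at day 11 was 24.6 CPM in female replicate 2 (next 11.3), Nrp2 at day 7 was 38.0 in male replicate 2 (next 28.8), and Efna1 at day 7 was 21.1 in the same library (next 30.8). Epha7 was 2.71 CPM in female replicate 1 at day 7 (next 1.47) and 2.45 in male replicate 1 at day 11 (next 1.22). In uninjured muscle Efna4 was 0.443 CPM in male replicate 1 (next 0.153) and Ephb4 26.9 in female replicate 2 (next 30.8).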

How the results depend on the processing

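Under RLE scaling, both filters, thinning, halved counts, DESeq2, a fit of only the groups compared and the replicate block, the counts of members called at each day against uninjured muscle, between days 4 and 7 and between days 4 and 15 stayed within 1.5 times those reported. With library size alone 3, 1, 1 and 1 members were called lower at days 4, 7, 11 and 15 (8.65%, 7.07%, 8.08% and 7.94% of all genes), and 0 from day 11 to 15 (1.73% of all genes). The values that turned positive there were Sema3g (0.51), Efna1 (0.67), Ephb4 (1.06) and Plxna4 (0.71) at day 4, Sema3c at days 7 (0.0053) and 11 (0.56) and Sema6c at day 11 (0.11), with the median of all genes at 1.47, 1.42, 1.46 and 1.30 at the 4 days. From day 11 to 15 the members called higher were 2 with RLE scaling, the CPM filter or halved counts and 4 with DESeq2, and those called lower 2 without a filter, with halved counts or in the smaller fit and 3 with DESeq2. For females against males 0 members were called with RLE scaling, no filter, the replicate block, thinning or halved counts, and 3 with DESeq2. Replicate numbers showed no pairing of the libraries: the mean correlation of residuals was 0.00684 for the same number and -0.00409 for different numbers. In only 11 of the 30 libraries was the mean correlation with other groups highest for their own number. The block changed 1 other call, Sema3f between days 4 and 15 (adjusted p = 0.0535). The causes were not tested. Leaving out 1 library at a time gave 31 to 36 members higher and 7 to 8 lower at day 4, 32 to 37 and 5 at day 7, 33 to 38 and 4 to 5 at day 11, and 36 to 40 and 4 at day 15. The ranges were 8 to 13 and 4 to 8 from day 4 to 7, 0 and 0 from day 7 to 11, and 1 to 5 and 0 to 5 from day 11 to 15. They were 13 to 15 and 11 to 18 from day 4 to 15, and 0 for the sexes. The shares of all genes called without 1 library were not counted. Of 215 calls of single members, 30 were lost without at least 1 library and 27 under at least 1 of the other alternatives apart from library size alone. Depth limits members with few uninjured counts, among them Slit2, Epha3, Efna4 and Epha5, with 30, 54, 20 and 2. Others were Efna3, Sema3e, Epha1, Sema4f and Sema4g, with 16, 41, 53, 56 and 56 uninjured counts.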
